A study of Mus musculus with 8 samples.

Results

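The genes for choline carriers of the FLVCR and SLC44 families were described in the brains of mouse embryos. These 7 genes, *Flvcr1*, *Flvcr2* and *Slc44a1* to *Slc44a5*, were selected by gene name among the 33971 genes of the count table, and all 7 were found. *Flvcr2* is the name in that table for *Mfsd7c*. Wild-type (WT) females were mated with WT males and were given either a choline-deficient diet (CDD), from the day of mating, or normal chow (ND). Polyadenylated RNA of whole brains taken at the embryonic stage E14.5 was sequenced in bulk from 4 brains of each diet, and no brain of either group carried an engineered allele. The number of dams and litters behind the brains was not stated, so the p-values measure the spread between these brains, some of which may share a litter.

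Choline is a quaternary amine that cells take up through membrane carriers and then phosphorylate for phosphatidylcholine, acetylate to acetylcholine in cholinergic neurons, or oxidize to the methyl donor betaine. FLVCR1 and FLVCR2 are members of the major facilitator superfamily that move choline down its gradient. FLVCR1 is made in most cell types, whereas FLVCR2 in the brain is best known from the endothelium of the blood-brain barrier, and its loss causes the vascular malformation called Fowler syndrome. Both proteins have also been studied in connection with heme. The SLC44 proteins are the choline transporter-like proteins, of which SLC44A1 is found at the plasma membrane and in mitochondria of many cells, SLC44A2 carries a neutrophil antigen in humans, and SLC44A4 is also known as a carrier of thiamine pyrophosphate in the gut. The paper could not show choline import by SLC44A1 or SLC44A2 in its own assays.

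The sequence before the start of each gene is shown for 4 of the 7 genes, *Flvcr2* and *Flvcr1* as the FLVCR pair, *Slc44a1* as the member richest in CG dinucleotides there, and *Slc44a4* as the member with the fewest reads. Each is the 250 bases before the start listed by RefSeq on GRCm38.p6, written 5′ to 3′ on the strand of the gene, with CG dinucleotides in capitals. They lie at chr12:85746289-85746538 on the plus strand for *Flvcr2*, chr1:191026191-191026440 on the minus strand for *Flvcr1*, chr4:53440163-53440412 on the plus strand for *Slc44a1* and chr17:34914216-34914465 on the plus strand for *Slc44a4*.
Flvcr2: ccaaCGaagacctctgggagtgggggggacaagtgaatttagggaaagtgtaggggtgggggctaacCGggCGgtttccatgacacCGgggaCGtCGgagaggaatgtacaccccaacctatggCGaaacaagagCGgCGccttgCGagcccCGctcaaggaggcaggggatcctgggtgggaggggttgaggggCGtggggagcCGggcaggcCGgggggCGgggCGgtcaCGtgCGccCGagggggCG
Flvcr1: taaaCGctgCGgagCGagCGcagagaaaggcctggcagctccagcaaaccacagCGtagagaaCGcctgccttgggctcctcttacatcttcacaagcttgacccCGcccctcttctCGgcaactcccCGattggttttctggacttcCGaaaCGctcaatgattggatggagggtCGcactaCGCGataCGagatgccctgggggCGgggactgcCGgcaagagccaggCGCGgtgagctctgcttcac
Slc44a1: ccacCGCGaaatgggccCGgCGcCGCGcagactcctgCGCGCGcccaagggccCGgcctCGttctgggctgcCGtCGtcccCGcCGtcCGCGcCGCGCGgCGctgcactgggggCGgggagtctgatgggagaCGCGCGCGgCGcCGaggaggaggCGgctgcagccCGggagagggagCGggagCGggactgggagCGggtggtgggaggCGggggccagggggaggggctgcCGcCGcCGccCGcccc
Slc44a4: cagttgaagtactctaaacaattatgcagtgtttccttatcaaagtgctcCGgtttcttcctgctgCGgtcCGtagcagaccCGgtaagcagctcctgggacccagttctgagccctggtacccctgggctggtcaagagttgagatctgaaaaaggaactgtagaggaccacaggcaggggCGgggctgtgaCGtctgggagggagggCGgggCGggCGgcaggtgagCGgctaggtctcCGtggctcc

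RefSeq listed 9 such regions for the 7 genes, and *Slc44a1* and *Slc44a2* had more than one start. The *Slc44a1* region held 38 CG dinucleotides, more than 98.1% of the 32851 regions of this length. *Flvcr2* held 20 and *Flvcr1* held 19, above 82.1% and 80.3% of all regions, whereas *Slc44a4* and *Slc44a3* each held 11. *Slc44a5* held 15, and the starts of *Slc44a2* held 9 and 3, beside a median of 6 over all regions. The letters TATAAA, searched on both strands, were in 0 of the 9 regions and in 12.4% of all regions. These are descriptions of sequence, and the RNA data hold no measure of binding or methylation there.

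The libraries held 31770217 to 43121170 counted reads each. Levels below are in CPM, the share of the library's reads in parts per 1000000 after scaling by the trimmed mean of M values (TMM). The labelled tissue was checked by marker genes: 8 markers of postmitotic neurons summed to between 6336 and 7168 CPM per brain and 8 markers of neural progenitors to between 1399 and 1696 CPM, whereas 8 genes of other tissues (such as *Alb* and *Krt5*) summed to at most 1.59 CPM. One library stood apart: CDD replicate 2 had 3839 counts on 10 *Hox* genes of the caudal hindbrain and spinal cord, and the other 7 brains had 0 to 14. In the comparison of the diets, in which 4.24% of all genes tested were higher and 4.59% lower in CDD brains by edgeR, 3 of 8 progenitor markers were higher in CDD brains and 0 were lower, 1 was higher and 4 were lower of 8 markers of meningeal fibroblasts, and 1 was higher and 2 were lower of 8 markers of mural cells. Of 6 oligodendrocyte lineage markers 2 were lower, of 12 erythroid markers 2 were higher, and of 8 neuronal markers 1 was lower. The 2 erythroid calls did not stand for their list, whose median log2 fold change was −0.20. Its summed level was 765 to 1427 CPM in CDD brains and 828 to 2997 CPM in ND brains, with overlap. No marker of choroid plexus or microglia (8 each) and none of the *Hox* or other-tissue lists, of which 1 gene in all was tested, passed the threshold. The part of cell composition in any result below was not tested, and in whole-brain RNA fewer cells of a type and less RNA per cell cannot be told apart.

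Of the 7 members, 5 were expressed well above the limit of counting in E14.5 brains, and 2 were close to it. To compare genes, CPM was divided by the gene length that the table lists, in kilobases. *Slc44a2* was the highest, at 7.91 ± 0.272 CPM per kilobase over both diets (SD, n = 8), followed by *Slc44a5* at 5.99 ± 0.169, *Slc44a1* at 4.46 ± 0.307 and *Flvcr1* at 4.09 ± 0.233 CPM per kilobase. *Flvcr2* was lower, at 1.49 ± 0.2003 CPM per kilobase, and *Slc44a3* and *Slc44a4* reached 0.0634 ± 0.0208 and 0.0207 ± 0.017 CPM per kilobase. Among all 19367 genes with enough reads for a test, the mean level of *Slc44a2* lay at percentile 66.2, that of *Flvcr2* at percentile 32.7 and that of *Slc44a3* at percentile 0.491.

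The order of these levels was tested between neighbours within each brain, with an exact two-sided sign-flip permutation test over the 8 brains. Its smallest possible p is 0.00781. *Slc44a2* exceeded *Slc44a5* by 0.40 ± 0.075 on the log2 scale (SD of the ratio within a brain) in 8 of 8 brains, *Slc44a5* exceeded *Slc44a1* by 0.43 ± 0.071 in 8 of 8, and *Flvcr1* exceeded *Flvcr2* by 1.47 ± 0.17 in 8 of 8. *Flvcr2* exceeded *Slc44a3* by 4.62 ± 0.61 in 8 of 8 brains. Each of these 4 differences had an exact p of 0.00781, adjusted p = 0.00977 over 5 pairs. *Slc44a1* and *Flvcr1* were the closest neighbours, 0.12 ± 0.16 apart on the log2 scale, with *Slc44a1* the higher in 7 of 8 brains (exact permutation p = 0.0469, adjusted p = 0.0469). This last difference did not pass once any single brain other than CDD replicate 3 was left out (adjusted p up to 0.0938 in the exact test), so the order of these genes was not settled by 8 brains. *Slc44a4* had a count of 0 in some brains and no log ratio was formed, but its level per kilobase was below that of *Slc44a3* in 8 of 8 brains. Levels per length use the length listed for the whole gene, and shorter transcripts would be given too low a level.

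**Figure D1:**
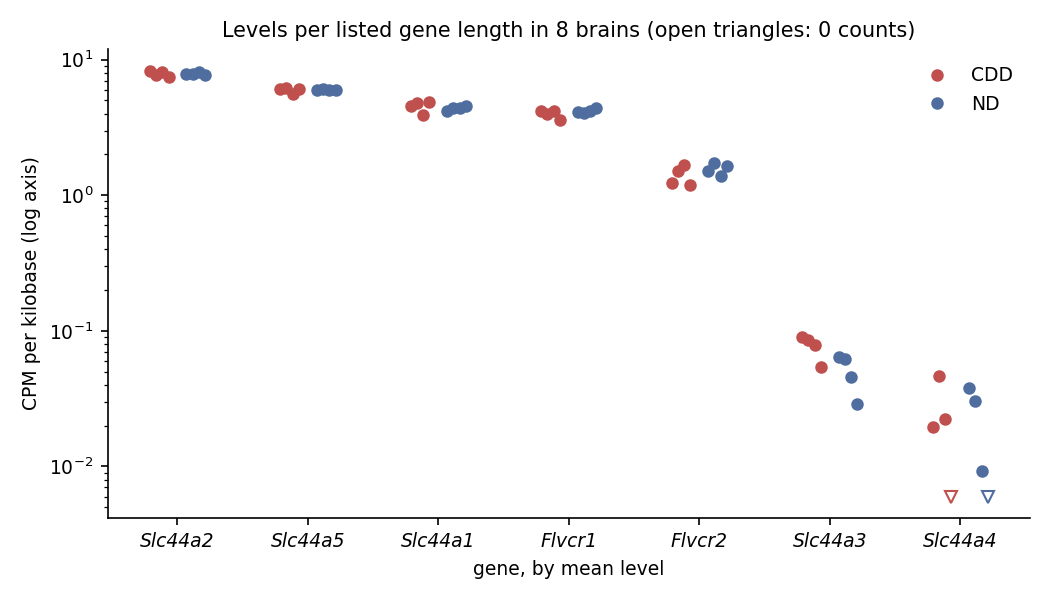
Level of each choline transporter gene in CPM per kilobase of listed gene length, on a log axis, in 4 CDD brains (red) and 4 ND brains (blue), with open triangles for brains with 0 counts. The genes fall from *Slc44a2* near 7.91 to *Slc44a4* near 0.0207, and within every gene the points of the diets overlap.

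Within the SLC44 family, *Slc44a2*, *Slc44a5* and *Slc44a1* made up nearly all of the summed level in both diets. *Slc44a2* gave 42.8% ± 2.41 of the family's CPM per kilobase in CDD brains and 43.0% ± 0.733 in ND brains (SD, n = 4 each). *Slc44a5* gave 32.2% ± 0.615 and 32.8% ± 0.355, and *Slc44a1* gave 24.5% ± 1.87 and 23.9% ± 0.715, in CDD and ND brains respectively. *Slc44a3* and *Slc44a4* made up the rest, with *Slc44a3* at 0.414% ± 0.0833 in CDD and 0.273% ± 0.0906 in ND brains. Of the FLVCR pair, *Flvcr2* held 25.9% ± 2.59 in CDD brains and 27.2% ± 2.00 in ND brains, a difference smaller than either SD.

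The first question the design raises is whether a choline-poor maternal diet changes the RNA of these carriers in the fetal brain. No member passed the threshold. Of the 6 members with enough reads for a test, 0 had an adjusted p under 0.05 in edgeR's quasi-likelihood test with Benjamini-Hochberg adjustment, beside 8.83% of all 19367 genes tested. At an unadjusted p under 0.05 it was 0 of 6 as well, beside 23.9% of all genes. Limma-voom also called 0 of them, and DESeq2 called 0 of those it gave an adjusted p, which left out *Slc44a3*. In 0 of 6 members did all CDD brains lie on one side of all ND brains, which 15.0% of the genes tested did. The median absolute log2 fold change of the 6 members was 0.056, and that of all genes tested was 0.11. These medians do not compare genes of like precision. The SE was 0.045 to 0.067 for *Slc44a2*, *Slc44a5*, *Flvcr1* and *Slc44a1*, 0.13 for *Flvcr2* and 0.37 for *Slc44a3*. Over all genes tested the median SE was 0.084.

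*Flvcr2*, the carrier of the blood-brain barrier (chromosome 12, positions 85793313 to 85860359, plus strand, on the build of the deposited table, which the sources used here do not name), had 138 to 253 counts in CDD brains and 168 to 200 in ND brains. Its level was 4.35, 5.30, 5.88 and 4.16 CPM in CDD replicates 1 to 4, and 5.27, 6.03, 4.86 and 5.80 CPM in ND replicates 1 to 4. The 2 lowest brains, CDD replicates 1 and 4, were below every ND brain, but CDD replicates 2 and 3 were within the ND range. The mean was 4.92 ± 0.809 CPM in CDD and 5.49 ± 0.529 CPM in ND brains (SD, n = 4 each). On the log2 scale, CDD over ND, this was −0.15 (SE 0.13). The difference did not pass the test (edgeR adjusted p = 0.513), and its 95% interval of −0.41 to 0.11 covers levels in CDD brains from 0.7501 to 1.08 times those in ND brains. The estimate ran from −0.25 without CDD replicate 3 to −0.079 without CDD replicate 4, and was −0.18 without CDD replicate 2, the library with *Hox* counts. No gene of the table overlaps *Flvcr2*.

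*Flvcr1*, its widely expressed relative (chromosome 1, positions 190738044 to 190758355, minus strand), had 616 to 936 counts per brain. It was at 21.8, 20.7, 21.7 and 18.6 CPM in CDD replicates 1 to 4, and at 21.2, 21.0, 21.7 and 22.7 CPM in the ND replicates. CDD replicate 4 was the lowest brain and CDD replicate 2 the next, and CDD replicates 1 and 3 lay among the ND brains. The log2 fold change was −0.063 (SE 0.066), with a 95% interval from −0.20 to 0.075 and an edgeR adjusted p of 0.614. An antisense RNA, *A230020J21Rik*, overlaps the gene with a mean of 3.5 counts.

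*Slc44a1*, the member of the family found in many cells (chromosome 4, positions 53440413 to 53622478, plus strand), was at 31.7, 33.1, 27.3 and 33.9 CPM in CDD replicates 1 to 4. The ND replicates had 29.0, 30.6, 30.5 and 31.7 CPM. CDD brains held both the 3 highest values and the lowest, so the ND values fell inside the CDD range. The log2 fold change was 0.048 (SE 0.067, 95% interval −0.091 to 0.19, edgeR adjusted p = 0.724). The antisense RNA *1700060J05Rik* overlaps it with a mean of 21.9 counts, against at least 979 counts of *Slc44a1* in each brain.

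*Slc44a2*, the most abundant member (chromosome 9, positions 21231994 to 21266324, plus strand), had 2149 to 3045 counts per brain. Its level was 72.1, 67.3, 70.7 and 64.8 CPM in the CDD replicates and 67.9, 68.0, 70.6 and 67.3 CPM in the ND replicates. The ND brains again lay inside the range of the CDD brains. Its interval was the narrowest of the 6 tested members, with a log2 fold change of 0.0061 (SE 0.045, 95% interval −0.089 to 0.10, edgeR adjusted p = 0.955). The interval covers levels in CDD brains from 0.9404 to 1.07 times those in ND brains.

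*Slc44a5*, a less studied member (chromosome 3, positions 153679073 to 153977359, plus strand), was at 44.2, 44.6, 40.8 and 44.0 CPM in the CDD replicates and at 43.2, 44.5, 43.7 and 43.8 CPM in the ND replicates. CDD replicate 3 was the lowest, and the other 7 brains lay between 43.2 and 44.6 CPM. The log2 fold change was −0.013 (SE 0.0503), the 95% interval −0.12 to 0.092 and the edgeR adjusted p 0.906. The 3 small annotated features inside the gene, among them the pseudogene *Gm3076*, had a mean of at most 1.13 counts each.

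The remaining members had few reads. *Slc44a3* (chromosome 3, positions 121253177 to 121326053, minus strand) had 15, 15, 17 and 9 counts in CDD replicates 1 to 4 and 11, 10, 8 and 5 counts in ND replicates 1 to 4. CDD replicates 1 to 3 were above every ND brain, and CDD replicate 4 was among them. The means were 0.388 ± 0.0817 CPM in CDD and 0.253 ± 0.0825 CPM in ND brains (SD, n = 4 each). The log2 fold change of 0.62 (SE 0.37) was the largest of the 6 tested members and did not pass the test (edgeR adjusted p = 0.324). Its 95% interval, −0.16 to 1.40, covers levels in CDD brains from 0.897 to 2.64 times those in ND brains, so neither no change nor a more than doubled level was outside what these counts allow. The antisense RNA *A530020G20Rik* overlaps it with a mean of 2.13 counts, and whether the counting used strand was not stated.

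*Slc44a4*, the gut carrier of thiamine pyrophosphate (chromosome 17, positions 35133442 to 35149412, plus strand), had 2, 5, 3 and 0 counts in the CDD brains and 4, 3, 1 and 0 counts in the ND brains. It did not pass the filter on low counts. In total, 10 counts in CDD and 8 counts in ND brains give a ratio of CDD over ND of 1.16, with an exact 95% interval of 0.411 to 3.37 that covers counting error alone. With no filter on low counts the edgeR log2 fold change was 0.21 (adjusted p = 0.957). A count of 0 allows up to 3 counts, which is 0.0696 to 0.0944 CPM at the depths of these libraries, and a difference within the interval of the ratio was not detectable at this depth.

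**Figure D2:**
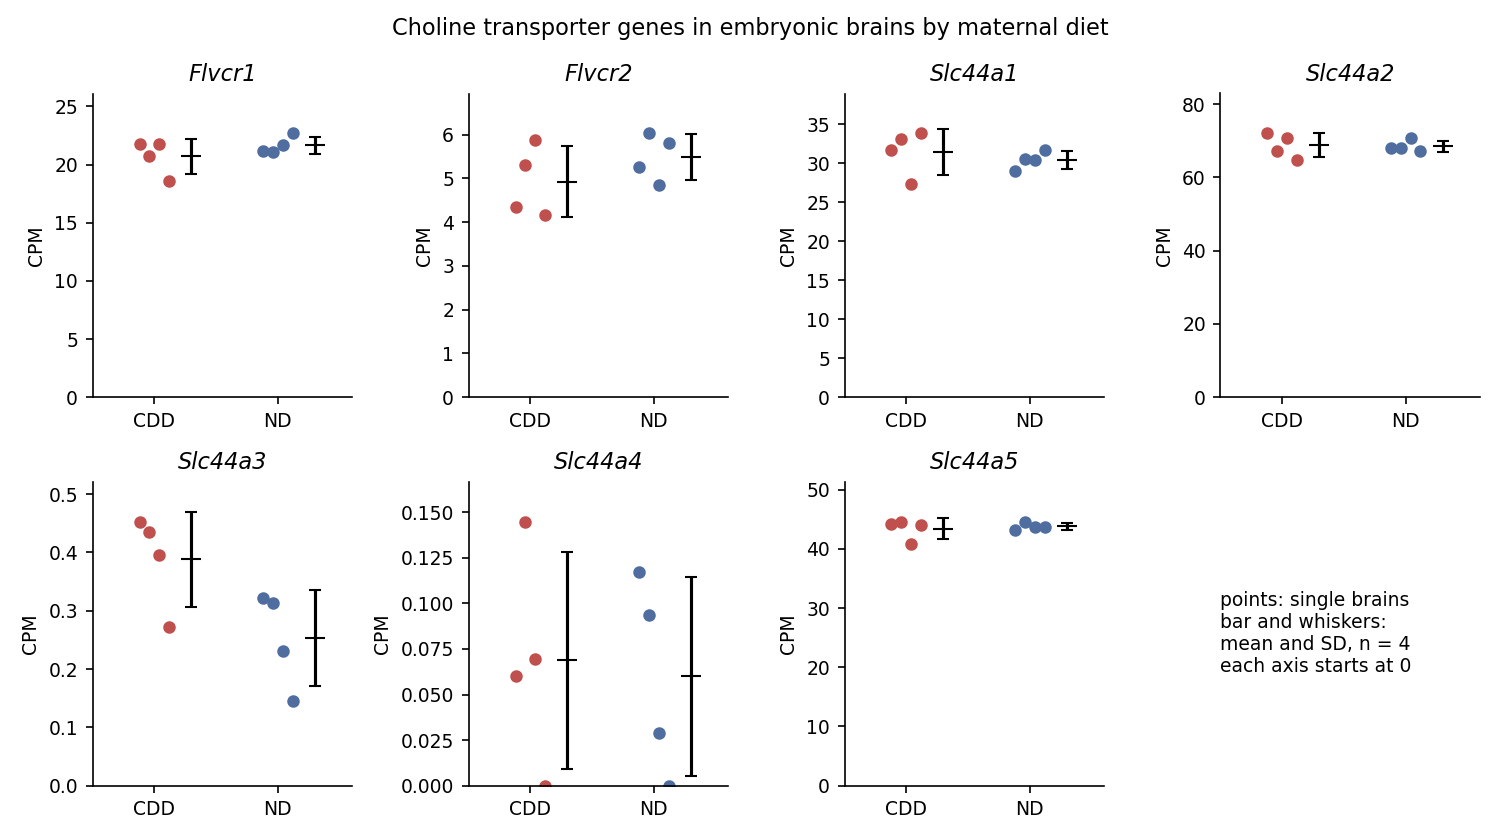
CPM of the 7 choline transporter genes in single brains (points) from CDD (red) and ND (blue) dams, with the mean and SD of 4 brains beside them and each axis starting at 0. The diets overlap in every gene, with means of 4.92 and 5.49 CPM for *Flvcr2* and 68.7 and 68.5 CPM for *Slc44a2* in CDD and ND brains.

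The CDD brains were more spread out than the ND brains. The coefficient of variation over 4 brains was 16.4% in CDD and 9.64% in ND brains for *Flvcr2*, where counting alone would give about 7.52%. For *Slc44a1* it was 9.31% and 3.65% (3.05% from counting), and for *Slc44a5* 4.06% and 1.28% (2.57% from counting). All 5 members that averaged 1 CPM or more varied more in CDD brains, as did 72.5% of the 15888 genes at that level, with medians over all these genes of 7.77% in CDD and 4.95% in ND brains. CDD replicate 4 was the lowest of the 4 CDD brains in 5 of the 7 members, *Flvcr1*, *Flvcr2*, *Slc44a2*, *Slc44a3* and *Slc44a4*, whereas CDD replicate 3 was the lowest in *Slc44a1* and *Slc44a5*.

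After each gene was centered within its diet, *Slc44a1* and *Slc44a5* varied together over the 8 brains (Pearson r = 0.904, Spearman rho = 0.738), and so did *Flvcr1* and *Slc44a2* (r = 0.752, rho = 0.548). *Slc44a1* and *Slc44a2* ran against each other (r = −0.571, rho = −0.643), and *Flvcr2* was most like *Flvcr1* among the members (r = 0.454, rho = 0.310). These correlations describe 8 points that share their libraries and depth, and no p is given. Among the 15888 genes that averaged 1 CPM or more, those closest to *Flvcr2* by Pearson r were *Cd2bp2* (0.972), *Slc35c2* (0.965), *Thumpd3* (0.956), *Fbxo22* (0.954), the creatine transporter gene *Slc6a8* (0.946) and *Nfatc2ip* (0.941). None of these 6 passed the test between the diets (edgeR adjusted p from 0.452 to 0.955). None was on the list of 16 endothelial markers, but so short a list among 15888 genes makes this uninformative. The highest of so many r over 8 brains is large for any gene, also for *Slc44a3* with its few reads (0.977 with *Emc6*). The pair closest to each other member was *AI413582* and *Afap1l2* for *Flvcr1*, *Atoh8* and *Rsph3a* for *Slc44a1*, *Fastk* and *Ovgp1* for *Slc44a2*, *Emc6* and *Tada2a* for *Slc44a3*, and *Dars* and *Parva* for *Slc44a5*, with r from 0.974 to 0.993 over the same 8 brains.

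Since *Flvcr2* is a gene of the vessel wall, it was set against the endothelium of the same brain. The 16 endothelial markers summed to 429.8 to 466.3 CPM in CDD brains and to 456.2 to 479.9 CPM in ND brains, a mean of 447.7 ± 15.0 against 469.0 ± 9.74 CPM (SD, n = 4 each). Of these markers 2 were lower and 0 were higher in CDD brains by edgeR's test, beside 4.59% and 4.24% of all genes tested, none of the 16 was at 0 in all brains, and *Slc2a1*, the glucose transporter of the barrier, was the most abundant at a mean of 85.3 CPM. The log2 ratio of *Flvcr2* to the summed markers was −6.69, −6.39, −6.31 and −6.69 in CDD replicates 1 to 4 and −6.48, −6.29, −6.63 and −6.30 in ND replicates 1 to 4. The diets overlapped, and the CDD mean was 0.099 below the ND mean on the log2 scale (exact two-sided permutation p = 0.457, adjusted p = 0.686 over 3 ratios). The smallest p that 4 against 4 brains allow is 0.0286. Shifts from −0.40 to 0.32 were not rejected by this test, and with single brains left out the difference ran from −0.17 (without CDD replicate 3) to −0.043 (without CDD replicate 1). Over the 8 brains, centered within diet, the correlation of *Flvcr2* with the mean log2 level of the markers was r = 0.196, whereas that of *Slc44a2* was 0.886, both without a test. Other marker lists also gave large values. For *Flvcr2* r was −0.675 with microglia and 0.654 with the oligodendrocyte lineage, and for *Slc44a2* it was −0.754 with postmitotic neurons and 0.648 with erythroid cells.

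**Figure D3:**
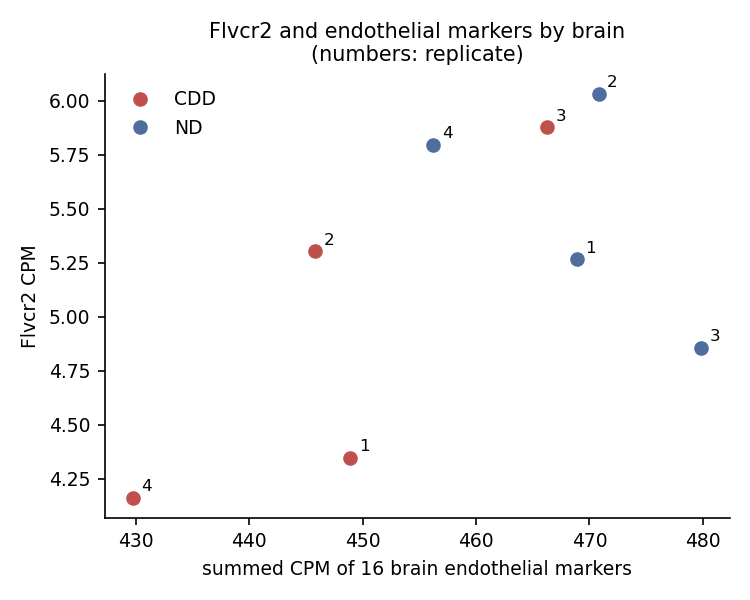
CPM of *Flvcr2* (vertical axis) against the summed CPM of 16 brain endothelial markers (horizontal axis) in each brain, colored by maternal diet and numbered by replicate; neither axis starts at 0. The CDD brains lie between 429.8 and 466.3 summed CPM and the ND brains between 456.2 and 479.9, and *Flvcr2* overlaps between the diets.

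The balance between paired carriers was also compared within brains, since a ratio of counts from one library does not depend on its scaling. *Flvcr1* had 5.01, 3.90, 3.70 and 4.46 times the counts of *Flvcr2* in CDD replicates 1 to 4 and 4.02, 3.49, 4.46 and 3.92 times in ND replicates 1 to 4. CDD replicates 1 and 4 lay above the ND range, the latter just so, and the other CDD brains lay inside it. The difference of the mean log2 ratio was 0.10 (exact two-sided permutation p = 0.457, adjusted p = 0.686), and shifts from −0.27 to 0.52 were not rejected. With single brains left out it ran from 0.0199 (without CDD replicate 1) to 0.17 (without CDD replicate 3). *Slc44a1* had 0.4403, 0.491, 0.386 and 0.523 times the counts of *Slc44a2* in the CDD replicates and 0.427, 0.4501, 0.432 and 0.4703 times in the ND replicates. Here the ND brains lay inside the CDD range, with a difference of 0.041 on the log2 scale (exact permutation p = 0.714, adjusted p = 0.714) and shifts from −0.28 to 0.29 not rejected. It ran from −0.024 without CDD replicate 4, a change of sign, to 0.12 without CDD replicate 3.

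**Figure D4:**
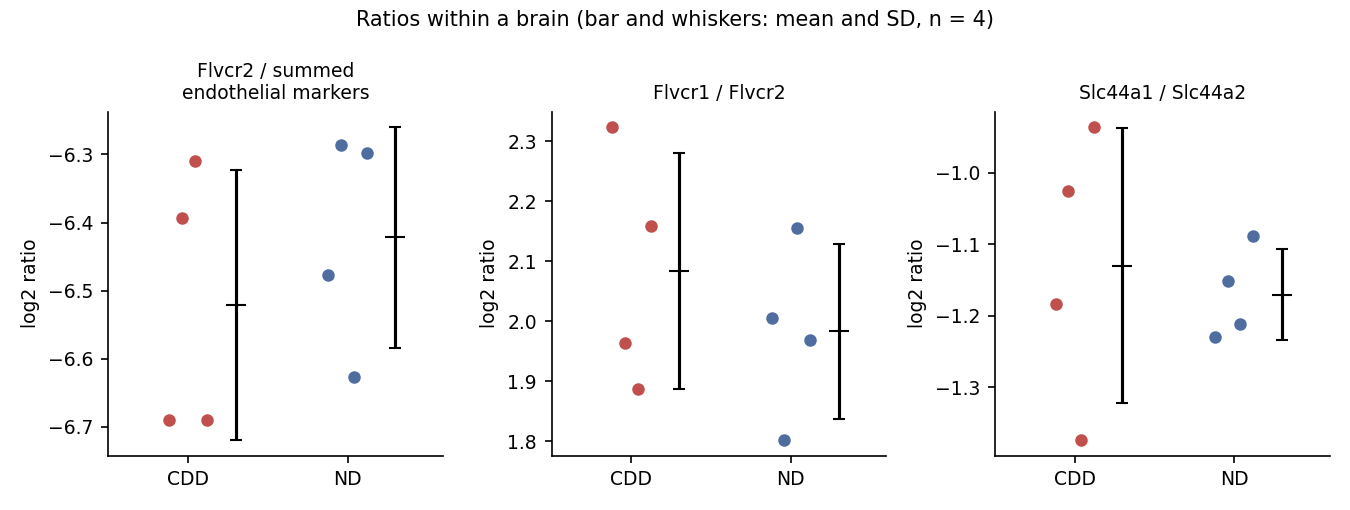
Log2 ratio within each brain of *Flvcr2* to the summed endothelial markers, of *Flvcr1* to *Flvcr2* and of *Slc44a1* to *Slc44a2* in CDD (red) and ND (blue) brains, with the mean and SD of 4 brains. The diets overlap in all 3 ratios, and the means differ by −0.099, 0.10 and 0.041.

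Among other genes of choline transport and metabolism and of heme handling, 4 passed the test of diet. A list of other carriers was drawn more widely than known choline carriers, and 11 of its genes were tested. Of these, 0 were higher and 1 was lower in CDD brains (4.24% of all genes were higher and 4.59% lower). Their log2 fold changes had a median of −0.079, beside −0.0038 over all genes tested. Of 14 tested enzymes that use choline, ethanolamine or products made from them 1 was higher and 0 were lower (median −0.011). Of 7 tested enzymes that release choline, or break down choline lipids without freeing it, 0 were higher and 2 were lower (median −0.12). Of 10 genes of heme handling, 0 were called in either direction by edgeR (median −0.036). At an unadjusted p under 0.05 the lists had 3 of 11, 4 of 14, 4 of 7 and 1 of 10 genes in this order, beside 23.9% of all genes tested. Of the genes with too few reads for a test, *Slc47a1*, *Bhmt*, *Enpp6* and *Phospho1* had a mean of at most 8.5 counts each.

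*Slc22a4*, a carrier of organic cations and ergothioneine, was the called gene among the carriers. It was at 1.51, 1.30, 1.63 and 1.27 CPM in CDD replicates 1 to 4 and at 2.31, 1.91, 2.54 and 2.12 CPM in ND replicates 1 to 4. Every CDD brain was below every ND brain, and the log2 fold change was −0.63 (SE 0.17, edgeR adjusted p = 0.0254). *Mfsd2a*, the lysophosphatidylcholine carrier of the blood-brain barrier, was at 25.4 ± 0.98 CPM in CDD and 25.5 ± 0.554 CPM in ND brains (SD, n = 4 each), a change of −0.0058 on the log2 scale (95% interval −0.13 to 0.11, edgeR adjusted p = 0.967). *Slc5a7*, the high-affinity choline carrier of cholinergic neurons, was at 4.38, 6.49, 3.28 and 2.71 CPM in the CDD replicates and 3.10, 3.44, 3.01 and 3.33 CPM in the ND replicates. Its highest brain was CDD replicate 2, the library with *Hox* counts, and its log2 fold change of 0.39 (SE 0.22, edgeR adjusted p = 0.315) was 0.10 when that brain was left out.

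Among the enzymes, *Pcyt1a*, which makes CDP-choline in the rate-limiting step of phosphatidylcholine synthesis, was at 72.6, 78.9, 71.1 and 82.2 CPM in the CDD replicates and at 65.4, 67.1, 67.3 and 66.9 CPM in the ND replicates. All CDD brains were above all ND brains, and the log2 fold change was 0.19 (SE 0.049, edgeR adjusted p = 0.0196). *Chka*, the choline kinase upstream of it, was at 76.4 ± 2.20 CPM in CDD and 81.3 ± 2.89 CPM in ND brains (SD, n = 4 each), a change of −0.0903 on the log2 scale that did not pass (SE 0.043, edgeR adjusted p = 0.2102).

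Of the enzymes that release choline, *Ache*, which breaks down acetylcholine, was at 17.2, 22.2, 19.3 and 14.3 CPM in the CDD replicates and at 24.5, 21.2, 26.6 and 26.0 CPM in the ND replicates. CDD replicate 2 lay above ND replicate 2, and the other CDD brains were below all ND brains. The log2 fold change was −0.43 (SE 0.12, edgeR adjusted p = 0.0411). *Pld2*, a phospholipase that cleaves choline from phosphatidylcholine, was at 16.1, 16.8, 16.3 and 14.03 CPM in CDD brains and 18.3, 17.8, 20.4 and 18.5 CPM in ND brains, without overlap, a change of −0.25 on the log2 scale (SE 0.073, edgeR adjusted p = 0.0421). None of these 4 calls was held in every setting: without ND replicate 1, 3 or 4 the count over the 4 lists was 0, and without CDD replicate 1 or 4 it was 2. With the endothelial marker level as a covariate the log2 fold changes were −0.37 for *Slc22a4*, 0.095 for *Pcyt1a*, −0.26 for *Ache* and −0.11 for *Pld2*, with edgeR adjusted p from 0.656 to 0.787. That level, the mean log2 CPM of the markers, was 4.23 to 4.36 in CDD and 4.35 to 4.46 in ND brains. It nearly separates the diets, so this fit cannot tell it well apart from diet.

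**Figure D5:**
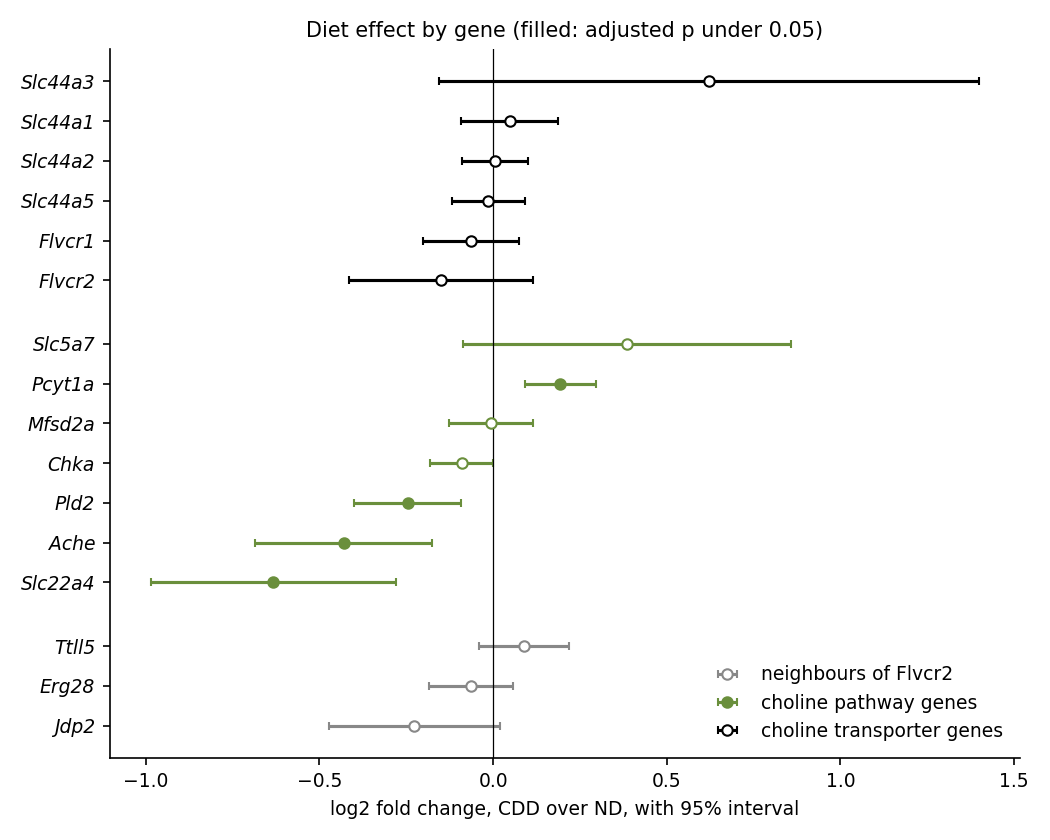
Log2 fold change of CDD over ND with its 95% interval (horizontal axis) for the 6 tested choline transporter genes (black), named genes of choline metabolism and transport (green) and tested neighbours of *Flvcr2* on its chromosome (grey), with filled points for an adjusted p under 0.05. All 6 transporter intervals include 0, while *Slc22a4*, *Ache*, *Pld2* and *Pcyt1a* at −0.63, −0.43, −0.25 and 0.19 do not.

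The genes next to *Flvcr2* on chromosome 12 showed no difference that passed the test either. *Jdp2*, a transcriptional repressor of the AP-1 family, had a log2 fold change of −0.23 (95% interval −0.47 to 0.0201, edgeR adjusted p = 0.253). *Erg28*, which acts in sterol synthesis, had −0.064 (adjusted p = 0.552 in edgeR), and *Ttll5*, a tubulin glutamylase, had 0.089 (adjusted p = 0.412 in edgeR). *Batf*, which lies nearest before *Flvcr2*, was at most 0.5204 CPM in any brain and did not pass the filter on low counts.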

How the data were processed

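For every gene, the authors deposited the unnormalized read counts of the 8 brains, beside counts divided by a size factor per library with their diet means, FPKM values with the gene length, and their own comparison (log2 fold change, p-value, adjusted p-value). The last, the scaled counts and shorter lists cut from that comparison were not used. The submitters' processing notes name HISAT2 2.0.5, featureCounts 1.5.0-p3 and DESeq2 1.20.0; the genome build was not given in the sources used here, and positions are those of the table. According to the methods, CDD feeding began at mating.

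Counts passed through edgeR 4.0.16: filterByExpr for low counts, TMM for library sizes and the robust quasi-likelihood test for diet, its only term, at an adjusted p under 0.05 (Benjamini-Hochberg over 19367 genes) as the threshold. Intervals of 95% come from the same fit. Between 31770217 and 43121170 counts per brain were available, and counting intervals cover counting error only. Ratios were compared by exact permutation over 4 against 4 brains, with the shifts not rejected at 0.05 as interval, and levels by exact sign flips. The fit was tested on simulated counts. There the 95% interval held 91.8% of the true changes, somewhat fewer than its name says, and held 0 for 95.2% of unchanged genes. No pair of brains agreed within sampling noise (chi-square per degree of freedom of at least 3.76). R 4.3.3, limma 3.58.1, DESeq2 1.42.0, Python 3.11.15 and SciPy 1.17.1 were used. The alternatives were DESeq2, RLE and upper-quartile scaling, limma-voom, other count filters, a replicate block, *Xist* or the endothelial marker level as a covariate, the deposited FPKM with a pseudocount of 0.1 or 1, an adjusted p under 0.1, other forms of the ratios and each brain left out. Levels compared on the linear scale were added after seeing the data.

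The members, gene lists and tests were chosen with earlier results of these data known. Named genes are every member, the 6 genes of at least 1 CPM most correlated with *Flvcr2* and the 2 most correlated with each other tested member, every called gene of the 4 pathway lists (at most 4 per list), *Mfsd2a*, *Slc5a7* and *Chka*, and 2 neighbours on each side of *Flvcr2*. Promoter sequences are from RefSeq on GRCm38.p6 and found for all 7 members. A gene of the lists is not reported here.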

Additional observations from a re-analysis of the deposited data

Results flagged for a closer look

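A brain was looked for that stood far from the other brains of its diet, by a criterion that chance alone meets in about 1 of 20 groups of 4, over 64 groups (members, ratios, named genes and marker lists in each diet). It picked out 3, about the number chance gives, but this count does not make any 1 of them a chance event. *Slc44a5* was at 40.8 CPM in CDD replicate 3, against 44.0 to 44.6 CPM in the other CDD brains. *Batf*, a neighbour of *Flvcr2*, was at 0.5204 CPM in ND replicate 3 and at 0.188 to 0.232 CPM in the other ND brains. The 10 *Hox* genes of caudal hindbrain and spinal cord summed to 111.2 CPM in CDD replicate 2 and to 0 to 0.423 CPM in the other CDD brains.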

How the results depend on the processing

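In every setting 0 members were called, and *Flvcr2* stayed lower in CDD brains, at −0.25 to −0.078 on the log2 scale with adjusted p from 0.221 to 0.931. The count of genes changed by diet was less stable: 23 with the endothelial marker level as a covariate, 404 and 390 on FPKM with a pseudocount of 0.1 and 1, 2774 at an adjusted p under 0.1, and 471 (without ND replicate 3) to 2495 (without CDD replicate 3) with a brain left out, 688 without ND replicate 1 and 615 without ND replicate 4. The same settings gave 0, 0, 1, 10 and, with a brain left out, 0 to 6 called genes over the pathway lists. The endothelial marker level nearly separates the diets, so that fit cannot tell it well apart from diet. The cause of these shifts was not tested. Signs turned with the endothelial covariate for *Flvcr1* (0.019), *Slc44a1* (−0.094), *Mfsd2a* (0.033) and *Ttll5* (−0.0073), with *Xist* as a covariate for *Mfsd2a* (0.0058), and with single brains left out for *Slc44a2* (−0.013 to 0.032), *Slc44a5* (−0.026 to 0.018) and *Mfsd2a* (−0.0201 to 0.016). The *Slc44a1* to *Slc44a2* ratio also changed sign with a brain left out (−0.024 to 0.12). *Slc44a3* was at 0.036 on FPKM with a pseudocount of 1, which shrinks changes of low genes, and at 0.98 with the endothelial covariate, and passed in neither. Brains of the same replicate number did not all deviate together (correlations 0.105, −0.133, 0.117 and 0.232, though 6 of 8 brains correlated best with their own number), and with the number as a block 1812 genes, 0 members and 3 pathway genes were called (*Ache* was lost, with an edgeR adjusted p of 0.0807, and 0.0832 with *Xist* as a covariate), *Flvcr2* was at −0.16, and the log2 ratios differed by the same −0.099, 0.10 and 0.041. The order of levels was the same on FPKM and without any brain, with 4 or 5 of 5 pairs past the threshold, and 6 of 6 on the linear scale. Depth limits *Slc44a3* and *Slc44a4*.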
